A study of Mus musculus with 186 samples.

Results

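The captured enhancer regions are the stretches of the mouse genome whose RNA was enriched with RNA baits before sequencing, and all 351 of them are described here, out of 940 regions in the enhancer table made from total RNA without capture. They were taken whole from the deposited enhancer capture table, with no choice by signal. Each of the 351 has the same coordinates in the table of total RNA. The authors' table gives each region a gene under the heading nearest gene, and whether a region acts on that gene was not tested. The regions are numbered here along the chromosome within that gene (Fos 1 to Fos 6). The 351 regions belong to 169 genes on 20 chromosomes and are 1010 to 5190 bp wide, with a median of 1210 bp.

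The cells were cortical neurons of CD1 mice, dissected at E16.5 and then cultured for 7 to 8 days. Activity was sustained or brief, and RNA was taken at 20 or 60 min or from unstimulated cultures, each with the MEK inhibitor U0126 or with DMSO as vehicle. The labels do not say what the stimulus was. The 10 groups of the enhancer capture are U0126 with sustained activity at 20 min and at 60 min, U0126 with brief activity at 20 min and at 60 min, U0126 unstimulated, and the same 5 with DMSO, 48 samples in all. Each group has 4 replicates. In the unstimulated groups a replicate is the mean of 2 cultures that were grown apart from 1 dissection. Total RNA of the same 10 groups was sequenced without capture, with 2 replicates in all but 2 groups, which keep 1 each. The labels do not say whether captured and total RNA came from the same cultures, nor which cells of the cultures the RNA came from.

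Enhancers are stretches of DNA, often far from any promoter, where transcription factors bind and raise the transcription of a gene on the same chromosome. Active enhancers are themselves transcribed into short, unstable enhancer RNA, so its level is used as a readout of how active an enhancer is. In neurons, calcium entry during activity switches on immediate-early genes such as Fos, Npas4 and Nr4a1 within minutes, through CREB, SRF and MEF2 and partly through the MEK-ERK kinase pathway that U0126 blocks. Introns are removed soon after they are transcribed, so intron RNA of a gene stands close to its current transcription.

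The regions are given by their mm9 coordinates. Their own sequence is not printed, since the genome at hand is of another build. The promoters of 3 genes are shown instead, out of 13 in which a captured region and the introns both rose at 60 min of sustained activity. They are Scg2, which encodes the neuropeptide precursor secretogranin II, and Nr4a1 and Nr4a2, which encode orphan nuclear receptors. The sequences run from 250 bases before to 50 bases after the gene's start, from RefSeq on GRCm38.p6, at chr1:79439977-79440276 on the minus strand for Scg2, chr15:101266596-101266895 on the plus strand for Nr4a1 and chr2:57123954-57124253 on the minus strand for Nr4a2. Capitals mark the cAMP response element TGACGTCA, which CREB binds, and its core TGACG, on either strand.
Scg2: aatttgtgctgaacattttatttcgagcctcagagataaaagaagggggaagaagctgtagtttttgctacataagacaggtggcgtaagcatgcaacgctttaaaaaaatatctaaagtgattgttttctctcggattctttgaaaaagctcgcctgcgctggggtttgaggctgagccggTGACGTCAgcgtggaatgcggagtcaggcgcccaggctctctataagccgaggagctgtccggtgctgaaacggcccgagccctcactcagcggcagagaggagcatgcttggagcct
Nr4a1: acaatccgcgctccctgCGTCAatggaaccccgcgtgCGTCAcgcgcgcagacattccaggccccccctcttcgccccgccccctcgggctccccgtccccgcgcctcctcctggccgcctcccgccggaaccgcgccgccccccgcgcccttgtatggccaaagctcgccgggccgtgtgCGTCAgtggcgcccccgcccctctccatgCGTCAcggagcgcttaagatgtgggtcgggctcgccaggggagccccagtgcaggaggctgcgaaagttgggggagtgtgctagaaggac
Nr4a2: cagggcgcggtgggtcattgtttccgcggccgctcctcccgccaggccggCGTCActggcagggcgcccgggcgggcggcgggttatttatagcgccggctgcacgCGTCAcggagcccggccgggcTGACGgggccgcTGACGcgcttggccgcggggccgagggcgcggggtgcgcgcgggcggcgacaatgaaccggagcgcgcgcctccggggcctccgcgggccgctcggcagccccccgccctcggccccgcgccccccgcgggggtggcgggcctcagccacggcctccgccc

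Scg2 has the full element, whose letters hold the core on both strands, and Nr4a1 and Nr4a2 have 4 cores each and no full element. Among 32851 RefSeq promoters of this length 20.8% hold the core and 1.79% the full element, on either strand. A promoter sequence was found for 124 of the 169 genes, 155 promoters in all, of which 72 (46.5%) hold the core and 13 (8.39%) the full element. The AP-1 site TGANTCA stands in 7.81% of all promoters and in 8 (5.16%) of the 155. The EGR site GCGTGGGCG stands in 0.612% of all and in 3 (1.94%) of the 155. Sites of SRF and MEF2, searched as 1 form each and given by name alone, stand in 0.0639% and 3.69% of all promoters and in 0 and 4 (2.58%) of the 155. For the 13 genes in which a region and the introns both rose, 11 promoters were found. Of these 10 hold the core, 2 the full element and 1 the MEF2 site, and 0 hold the AP-1, SRF or EGR site. A match describes letters of these windows and shows no bound factor.

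The 48 captured libraries held 48309 to 1073939 reads in the 351 regions, with a median of 255966. The 24 libraries of replicates 3 and 4 had 0 to 2 regions without a read, while 23 libraries of replicates 1 and 2 had 5 to 85, and the median signal over regions was 0.577 to 1.1 in replicates 3 and 4 and 0.705 to 4.5 in these libraries of replicates 1 and 2. U0126 with brief activity at 60 min, replicate 1, stood apart from all others. It had 48309 reads, 167 regions at 0 and a median signal of 41.5. Counts of changed regions are therefore also given for replicates 3 and 4 alone, and without this library where that moved a count by more than 1.5 times. Both choices were made after the zeros were seen. Markers were read in the introns of unstimulated DMSO cultures: summed over their lists, neurons had 3020 to 3720 RPM, astrocytes 352 to 473, dividing progenitors 93.3 to 237, the oligodendrocyte lineage 73.8 to 149, and microglia 3.99 to 5.31. The part of these other cells in the results was not tested, and fewer cells of a type cannot be told apart from less RNA per cell. Map2 alone had 1990 to 2730 RPM of the neuron sum and Slc1a3 200 to 248 RPM of the astrocyte sum. The sums therefore do not measure shares of cells.

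Over 60 min of sustained activity, RNA rose at regions paired with immediate-early genes and with other genes. No region fell past the threshold over all replicates by limma on the deposited signal. By edgeR on recovered reads 33 of the 343 regions tested were higher and 16 lower at 60 min. Of the regions that rose 10 belong to the list of immediate-early transcription factors (57 regions tested) and 14 to no list (207 tested). RNA of 32 regions, which belong to 19 genes, was higher than in unstimulated neurons (9.33% of the 343 regions tested, limma on log2 of the deposited signal plus 0.229, Benjamini-Hochberg adjusted p below 0.05). The 32 include 4 of 6 Fos regions, 4 of 6 Hsd17b12 regions, 3 of 4 AI836003 regions, and regions of Nr4a1, Nr4a2, Nr4a3, Fosl2, Nfil3, Arc, Per1, Sik1 and Scg2. At 20 min of sustained activity 3 regions were higher (0.875%), Nr4a1 2, Omg 1 and Fos 4, and 0 lower, with 35 at an unadjusted p under 0.05 and 23 changed by edgeR. Each of these 3 was also higher at 60 min.

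The counts moved with single libraries and with the fit. With a replicate block 53 regions were higher and 1 lower at 60 min, and 17 higher and 0 lower at 20 min. Without U0126 brief 60 min replicate 1, the library with 167 regions at 0, which is in neither group but in the shared fit, 55 regions were higher (16%) and 1 lower (0.292%) at 60 min, and 17 higher (4.96%) and 0 lower at 20 min. The 32 and the 3 were among these. The count of 32 was 4 without replicate 1 and 11 without replicate 2 of the sustained 60 min group, and 13 without replicate 3 and 15 without replicate 4 of the unstimulated group. Replicates 3 and 4 alone gave 87 higher regions of 51 genes (25.4%) and 7 lower (2.04%) at 60 min, the 32 among the 87, and 45 higher (13.1%) and 0 lower at 20 min, of which 42 were also among the 87. At 20 min the count of 3 was 1 without any of unstimulated replicates 1, 3 and 4 or sustained 20 min replicates 1 and 2. The median log2 change of all regions was 0.505 at 60 min as deposited and -0.214 once each library was centred on its median region, and 0.248 and -0.206 at 20 min. Centred, 58 regions were higher (16.9%) and 22 lower (6.41%) at 60 min, and 31 higher (9.04%) and 5 lower (1.46%) at 20 min.

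**Figure D1:**
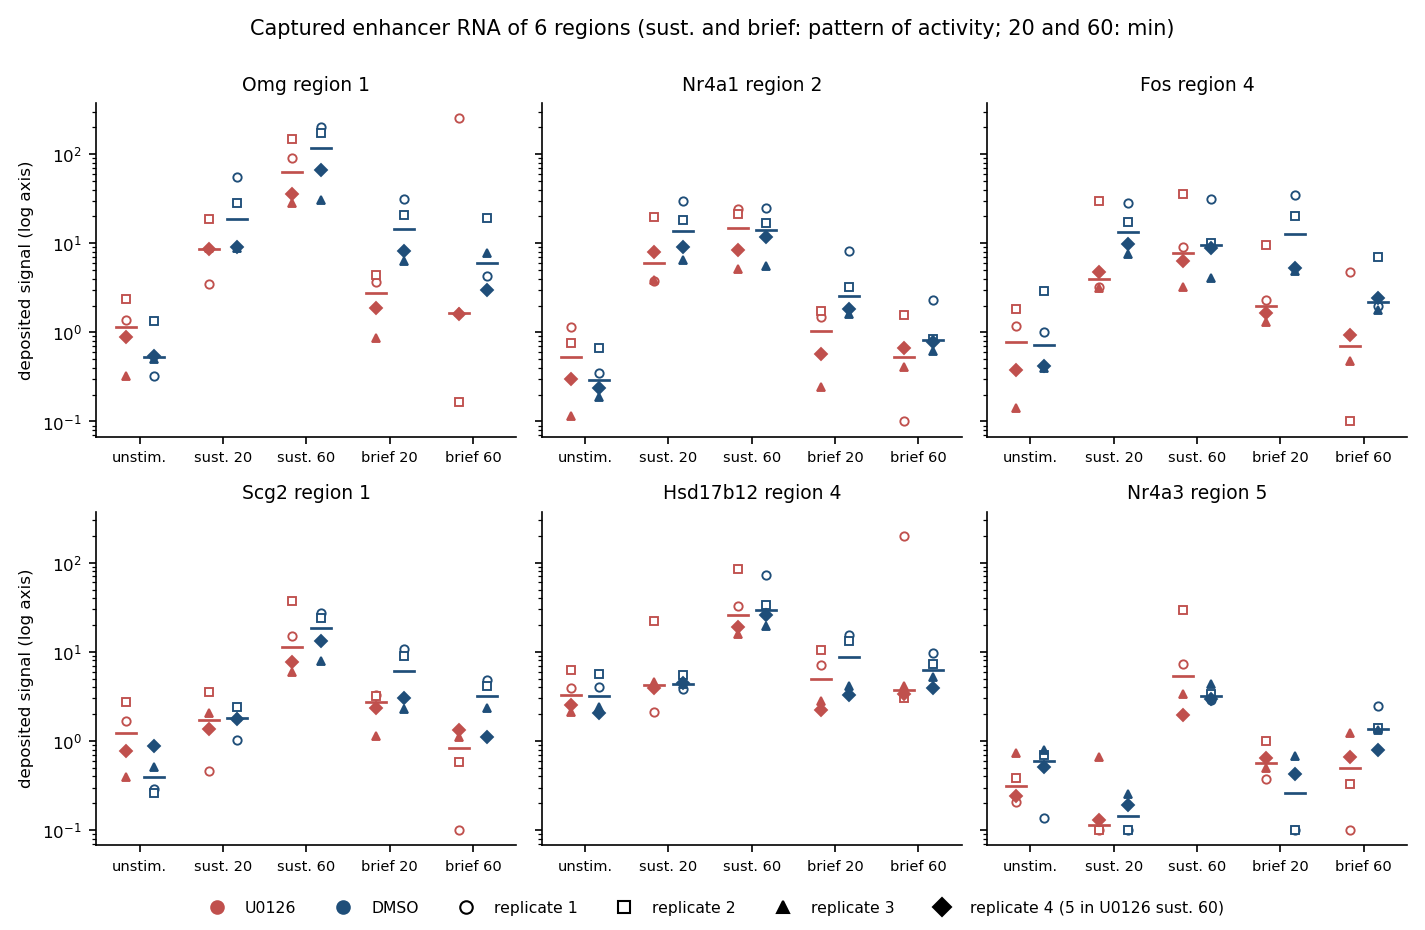
Deposited capture signal (log axis, values of 0 drawn at 0.1) of 6 regions in each replicate of the 10 groups, U0126 in red left of DMSO in blue; open points are replicates 1 and 2, filled points replicates 3 and 4 (replicate 5 by its sample title in 1 group), and lines are medians. With DMSO, Omg 1 had 30.7 to 199 after 60 min of sustained activity and 0.321 to 1.35 in unstimulated neurons.

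The strongest response belonged to Omg 1 at chr11:74985460-74986620, paired with the gene of oligodendrocyte myelin glycoprotein, a surface protein that neurons also make. Its signal was 199, 171, 30.7 and 65.7 in replicates 1 to 4 after 60 min of sustained activity, against 0.321, 1.35, 0.501 and 0.547 in unstimulated neurons, a log2 change of 6.77 ± 1.08 (SE, n = 4 each, adjusted p = 2.09e-05). After 20 min it was 54.8, 28.2, 8.94 and 9.18 (log2 change 4.52, adjusted p = 0.0228). The lowest stimulated value was above the highest unstimulated value at both times. Per kb of region and in replicates 3 and 4, it ranked 193 in unstimulated neurons and 1 after 60 min. Atp10d 1, paired with the gene of a phospholipid-transporting ATPase, ranked 1 in unstimulated neurons with 45.8 signal per kb and had 38.7 after 60 min, while the median region had 0.814 after 60 min and 0.482 in unstimulated neurons.

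Among receptors of the NR4A family, transcription factors of the immediate-early class, Nr4a1 2 at chr15:101083840-101085090 was high at both times. It had 24.9, 16.7, 5.62 and 11.7 after 60 min, against 0.348, 0.669, 0.189 and 0.237 in unstimulated neurons (log2 change 4.54 ± 0.72, SE, adjusted p = 2.09e-05), and 29.5, 18.2, 6.48 and 9.0 after 20 min (4.59 ± 0.72, adjusted p = 5.14e-05). Nr4a2 1 at chr2:56956600-56957650 had 7.21, 5.44, 3.44 and 3.46 after 60 min, against 0.253, 0, 0.0510 and 0.0283 in unstimulated neurons (log2 change 4.03 ± 0.92, adjusted p = 0.00591). After 20 min its values were 0.521, 0.477, 0.776 and 0.201, with a log2 change of 1.21 that did not pass (adjusted p = 0.996). The groups did not overlap at 60 min for either region.

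Scg2 1 at chr1:79428480-79429890 rose further between the 2 times, with a log2 difference of 3.09. It had 27.5, 23.7, 7.92 and 13.1 after 60 min, against 0.289, 0.258, 0.505 and 0.866 in unstimulated neurons (log2 change 4.61 ± 0.71, SE, adjusted p = 2.09e-05), and 1.02, 2.40, 1.84 and 1.77 after 20 min (1.52, adjusted p = 0.431). Its values at 20 min also all lay above the unstimulated ones. Hsd17b12 4 at chr2:94077540-94080720, paired with the gene of an enzyme of fatty acid elongation, had 72.4, 33.4, 19.6 and 26.1 after 60 min, against 3.99, 5.62, 2.41 and 2.08 in unstimulated neurons (log2 change 3.26 ± 0.87, adjusted p = 0.0168). After 20 min it had 3.87, 5.45, 4.38 and 4.43, within the unstimulated range over all replicates. Its rise at 20 min passed in replicates 3 and 4 alone (log2 change 0.91, adjusted p = 0.0339).

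Fos encodes the partner of Jun proteins in the AP-1 factor, and its 6 regions lie between chr12:86776490 and chr12:86913040. Fos 1, 3, 4 and 5 passed at 60 min with log2 changes of 3.85, 2.56, 3.24 and 3.27, Fos 2 had 2.76 (adjusted p = 0.0687; 2.09 and adjusted p = 0.00158 in replicates 3 and 4), and Fos 6 had 0.20. Fos 4 had 31.4, 9.99, 4.06 and 8.94 after 60 min, against 1.02, 2.91, 0.396 and 0.422 in unstimulated neurons. Fos 1 had 12.5, 4.22, 1.85 and 2.37 after 60 min, against 0.00844, 0, 0.150 and 0.117. Arc 1, paired with the gene of a synaptic protein that forms capsid-like particles, had a log2 change of 2.62 (adjusted p = 0.0191).

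The other regions past the threshold at 60 min had log2 changes of 2.33 to 3.86. AI836003 1, 2 and 3, paired with a gene known by its clone name, had 3.86, 2.70 and 2.44. Per1 5 and 6, paired with a clock gene that CREB drives, had 3.05 and 3.31, and Sik1 2 and 4, paired with a salt-inducible kinase that restrains CREB coactivators, had 2.39 and 2.83. Fosl2 1, of another AP-1 gene, had 3.19, Nfil3 2, of a leucine zipper repressor, had 2.68, and Btg2 5, of an antiproliferative factor, had 2.77. Maml3 3, of a Notch coactivator, had 3.22, and Gprc5a 1 and 3, of an orphan G protein-coupled receptor, had 3.16 and 2.81. Gltscr2 3 and 4 had 2.58 and 2.92, Stk11 3, of the kinase LKB1, had 2.79, and Pgap1 2, of an enzyme that trims GPI anchors, had 2.50. Hsd17b12 3, 5 and 6 had 2.84, 2.91 and 2.79, Nr4a1 1 had 2.80, and Nr4a3 5 had 2.33.

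Not every immediate-early gene passed. None of the 9 Egr1 regions, 7 Fosb regions, 4 Npas4 regions and 4 Junb regions was past the threshold at 20 or 60 min of sustained activity over all replicates. In replicates 3 and 4 alone, Egr1 3 and Egr1 4 rose at 20 min, by log2 changes of 2.43 and 1.60 (adjusted p = 0.00734 and 0.025). Npas4 1 and 3 rose then by 1.65 and 1.89 (adjusted p = 0.00237 and 0.00671), Junb 2 and 3 by 1.86 and 2.36 (0.022 and 0.00671) and Fosb 1 by 2.08 (0.0131). At 60 min in these replicates Egr1 3 and Egr1 5 rose, Npas4 1, 2 and 3 rose by 1.97, 1.42 and 2.20, Fosb 1, 2, 3 and 7 rose by 2.32, 0.84, 1.68 and 1.34, and Junb 2 and 3 rose by 2.37 and 2.42. Without the library with 167 regions at 0, Egr1 3 and Junb 3 rose at 20 min and Fosb 1, 3 and 7, Junb 2 and 3 and Npas4 3 at 60 min. No captured region carries the name Bdnf.

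Regions that rose between the 2 times were few. After 60 min, against 20 min, of sustained activity 7 regions were higher (2.04%) and 0 lower: Hsd17b12 3 (log2 difference 3.48), Nr4a3 5 (3.47), Fosl2 2 (3.46), 4931440P22Rik 2 (3.31), Scg2 1 (3.09), Fosl2 3 (2.80) and AI836003 3 (2.23). Nr4a3 5 had 2.86, 3.40, 4.35 and 2.92 after 60 min, against 0, 0, 0.253 and 0.191 after 20 min (adjusted p = 0.00293), with 0.135, 0.688, 0.788 and 0.512 in unstimulated neurons. All 4 values at 60 min were above all at 20 min. The count was 1 without sustained 60 min replicate 1, 2 without replicate 1 or without replicate 2 of the 20 min group, and 4 without its replicate 4. Without the library with 167 regions at 0 it was 11 (3.21%), the 7 among them. edgeR called 1 region, centring 17, and replicates 3 and 4 alone 26 higher (7.58%) and 1 lower (0.292%).

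With brief activity, RNA of 1 region was higher at 20 min (0.292%) and 0 lower. This was Scg2 1, with 10.8, 9.04, 2.26 and 3.04 after brief activity against 0.289, 0.258, 0.505 and 0.866 in unstimulated neurons (log2 change 3.00 ± 0.71, SE, adjusted p = 0.0452). That count was 0 without any of unstimulated replicates 1, 3 and 4 or brief 20 min replicates 1, 2 and 4, 6 without unstimulated replicate 2 and 10 without brief 20 min replicate 3. It was 13 (3.79%) without the library with 167 regions at 0: Scg2 1, Arc 1, Btg2 5, Dusp6 3, Egr1 3, Egr1 4, Egr3 1, Fos 1, Fos 3, Fos 4, Fos 5, Nr4a1 2 and Omg 1. Replicates 3 and 4 alone gave 16 higher (4.66%) and 0 lower, of which 14 were also higher at 20 min of sustained activity in those replicates. The 16 were Arc 1, Cyr61 1, Cyr61 2, Dusp6 3, Egr1 3, Egr1 4, Egr3 1, Fos 1, Fos 4, Gprc5a 1, Ier2 2, Maml3 3, Nfil3 1, Nr4a1 2, Omg 1 and Scg2 1. Both comparisons use the same unstimulated samples. Centred, 20 regions were higher (5.83%) and 0 lower. A replicate block gave 13 changed regions.

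At 60 min after brief activity 0 regions passed with limma over all replicates, with 2 at an unadjusted p under 0.05 and 1 by edgeR. Omg 1 had 4.31, 19.2, 7.73 and 3.01 then, against 0.321, 1.35, 0.501 and 0.547 in unstimulated neurons, a log2 change of 3.04 that passed in replicates 3 and 4 alone (2.75, adjusted p = 0.0118). Against 20 min of brief activity 0 regions changed at 60 min by limma, 1 by edgeR and 13 at an unadjusted p under 0.05, and the smallest adjusted p was 0.68. Over the 32 regions of the sustained response the median log2 change was 1.576 at 20 min and 0.845 at 60 min of brief activity, and over all regions 0.374 and 0.252.

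**Figure D2:**
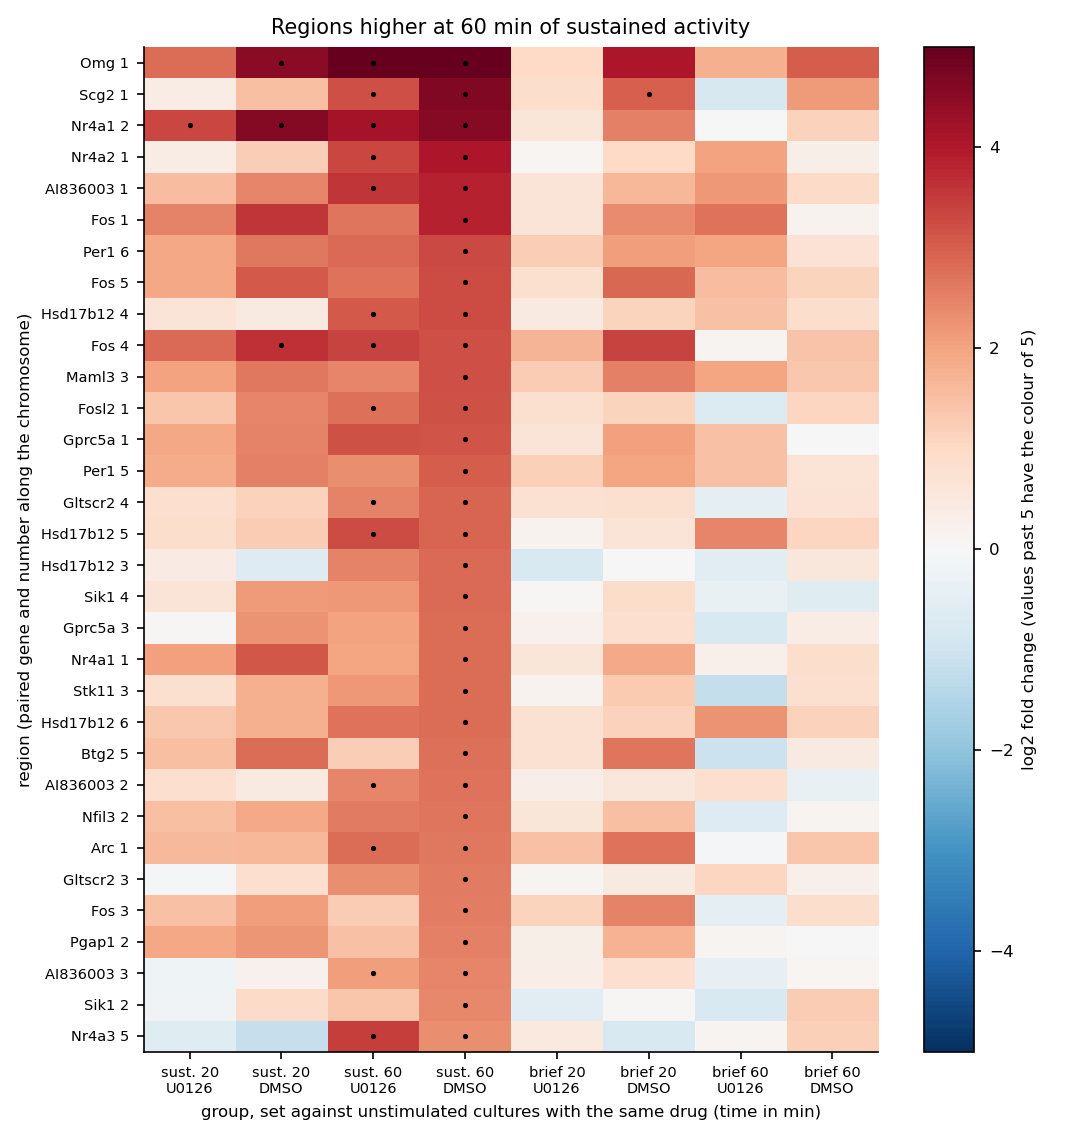
log2 change against the unstimulated group with the same drug in the 32 regions that rose at 60 min of sustained activity with DMSO, in pairs of columns with U0126 left of DMSO; dots mark adjusted p below 0.05, and changes past 5 share a colour. Of these rows 14 carry a dot at sustained 60 min with U0126 as well.

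Sustained and brief activity were set against each other directly. At 60 min 14 regions were higher after sustained than after brief activity (4.08%) and 0 lower, and at 20 min 0 differed by limma and 0 by edgeR, with 6 at an unadjusted p under 0.05 and 0 in replicates 3 and 4. Without the library with 167 regions at 0, 32 were higher (9.33%), the 14 among them, and 1 lower (0.292%) at 60 min. A replicate block also raised the count at 60 min, as given at the end. Nr4a2 1 had the largest difference, with 7.21, 5.44, 3.44 and 3.46 after sustained activity against 0.583, 0, 0.117 and 0.0487 after brief activity (log2 difference 3.74 ± 0.92, SE, adjusted p = 0.015). Nr4a1 2 had 24.9, 16.7, 5.62 and 11.7 against 2.30, 0.852, 0.616 and 0.783 (3.41 ± 0.72, adjusted p = 0.005). Values of the pairs did not overlap in either region.

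Omg 1 (log2 difference 3.73), Fos 1 (3.69), Fosl2 2 (3.61), Sik1 4 (3.42), Nfkbid 3 (3.38), Stk11 2 (3.34), AI836003 2 (3.07), Pgap1 2 (2.53), Rasgrp1 1 (2.48), Scg2 1 (2.47), AI836003 3 (2.35) and Kcnf1 2 (2.26) were the others. Nfkbid encodes an atypical inhibitor of NF-kappa-B, Rasgrp1 an exchange factor for Ras, and Kcnf1 a modulatory potassium channel subunit. In replicates 3 and 4 alone, Stk11 2, Rasgrp1 1 and Kcnf1 2 did not pass (adjusted p = 0.14, 0.0523 and 0.0714), and 70 regions were higher (20.4%) and 3 lower (0.875%). Centred, 47 were higher (13.7%) and 7 lower (2.04%). The count of 14 was 3 without replicate 1, 4 without replicate 2 and 26 without replicate 3 of the sustained 60 min group, and 2 without replicate 2 and 9 without replicate 4 of the brief 60 min group.

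Over the 32 regions the median log2 change at 60 min of sustained activity was 2.627 with U0126 and 2.876 with DMSO, each against unstimulated neurons with the same drug, and 1.42 and 2.128 at 20 min. The 32 were chosen by the DMSO change at 60 min, which favours a higher DMSO median there. The DMSO change at 20 min shares its unstimulated samples. Against unstimulated neurons with U0126, 17 regions were higher (4.96%) and 0 lower after 60 min of sustained activity, of which 14 were among the 32 with DMSO, that is 43.8% of the DMSO calls and 82.4% of the U0126 calls. The other 3 were Scg2 2, Pcsk1 1 and Fosl2 3. Omg 1 had 91.4, 149, 27.98 and 35.5 with U0126 and 199, 171, 30.7 and 65.7 with DMSO after 60 min. The ranges of the 2 drugs overlapped. With U0126, 1 region was higher at 20 min of sustained activity (0.292%), Nr4a1 2, and 0 at 20 or at 60 min of brief activity. The responses with U0126 in replicates 3 and 4 alone numbered 78 higher (22.7%) and 4 lower (1.17%) at 60 min and 31 higher (9.04%) and 0 lower at 20 min of sustained activity, and 0 at either time of brief activity. Of the 78 and the 31, 75 and 30 were also higher with DMSO in those replicates. Without the library with 167 regions at 0, 32 were higher (9.33%) and 1 lower (0.292%) with U0126 at 60 min of sustained activity. A region past the threshold with DMSO and not with U0126 is not thereby shown to differ between them.

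The direct comparison of U0126 with DMSO gave 0 regions in every state by limma over all replicates. At an unadjusted p under 0.05 there were 5 regions at sustained 20 min, 5 at sustained 60 min, 8 at brief 20 min, 37 at brief 60 min and 0 unstimulated, and edgeR called 2 at brief 20 min and 0 in the other states. The smallest adjusted p was 0.997, 0.999, 0.943, 0.389 and 0.998 in that order of states. The interaction of U0126 with the response to sustained activity at 20 and at 60 min and to brief activity at 20 min also gave 0 regions by limma and 0 by edgeR, with 0, 0 and 2 at an unadjusted p under 0.05. Centred libraries gave 5 regions at brief 20 min (Omg 1, Fos 4, Fos 5, Egr1 4 and Ier2 2) and 2 at brief 60 min. The fit has no replicate block and leaves variation shared by replicates of the same number in its spread. A block on centred libraries called regions at brief 20 and 60 min, as given at the end. The 37 at brief 60 min rest on a group that holds the library with 167 regions at 0 and a median signal of 41.5.

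The median difference over the 32 regions was below that of all regions at 20 min of brief activity. U0126 minus DMSO was -0.757 on the log2 scale over the 32 and -0.214 over all regions there, with 30 of the 32 and 238 of 343 lower with U0126. It was -0.514 and -0.233 at 20 min, and -0.295 and -0.135 at 60 min, of sustained activity, with 27 of the 32 lower at each time. In replicates 3 and 4 the same medians were -0.58 and -0.117, -0.237 and -0.015, and -0.301 and -0.052. The 32 were chosen by their rise at 60 min of sustained activity with DMSO. That choice favours lower values with U0126 at 60 min, where the same DMSO group is used. The values at all 3 states are described without a test.

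In replicates 3 and 4 alone, 3 regions were lower with U0126 at 20 min of brief activity (0.875%) and 0 higher. Omg 1 had 0.870 and 1.86 with U0126 against 6.33 and 8.27 with DMSO (log2 difference -2.30 ± 0.47, SE, n = 2 each, limma adjusted p = 0.0362). Egr1 4 at chr18:35046390-35047780, paired with a zinc finger immediate-early gene, had 0.526 and 0.656 with U0126 against 2.67 and 3.94 with DMSO (-2.09 ± 0.44, limma adjusted p = 0.0362). Cyr61 2 at chr3:145315840-145317000, paired with the gene of a secreted matricellular protein, had 0.851 and 0.852 against 2.48 and 2.65 (-1.37 ± 0.28, limma adjusted p = 0.0362). Over all 4 replicates Egr1 4 had 1.08, 2.38, 0.526 and 0.656 with U0126 against 12.4, 9.47, 2.67 and 3.94 with DMSO, without overlap, and a log2 difference of -2.34 ± 0.73 (unadjusted p = 0.00275, adjusted p = 0.943).

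In the introns of total RNA, U0126 lowered Egr1 and Egr2 at 20 min of sustained activity (log2 difference -3.73 and -2.86, limma adjusted p = 0.00456 for each). At 20 min of brief activity it lowered Fosb, Egr2, Egr1, Nr4a1 and Vgf (-3.97, -3.60, -3.44, -2.96 and -2.69, limma adjusted p = 0.00195, 0.00116, 0.00437, 0.00544 and 0.0124), out of 6 lower transcripts in the whole table of 21520 (0.0279%). Egr1 introns had 0.590 and 0.972 RPM with U0126 against 10.3 and 11.2 RPM with DMSO there. Egr2 introns had 0.0454 and 0.121 RPM with U0126 against 3.72 and 3.76 RPM with DMSO there. The 3 captured Egr2 regions had log2 changes of -0.57 to 0.28 at brief 20 min against unstimulated neurons, both with DMSO. At 60 min of sustained activity no transcript of the intron table differed by limma, where the U0126 group has 1 replicate.

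Immediate-early transcription factors held the most regions of any list. Of their 57 tested regions from 17 genes, 10 rose at 60 min of sustained activity, 2 at 20 min and 0 with brief activity at 20 min, and 4 were higher after sustained than brief activity at 60 min, against 9.33%, 0.875%, 0.292% and 4.08% of all regions. In replicates 3 and 4 the counts were 27, 19, 8 and 23 of 57, against 25.4%, 13.1%, 4.66% and 20.4% of all regions, and 0 fell. Their median log2 change at 60 min was 1.20, against 0.505 for all regions, and 0.39 against -0.214 when centred.

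Regions near feedback regulators of the ERK pathway, such as the Dusp phosphatases, are the next list. Of 15 tested regions from 7 genes 0 passed at 60 min, with a median of 0.64, and 6 rose in replicates 3 and 4, among them Dusp1 1 (log2 change 1.93). Of all regions 9.33% rose at 60 min, and 25.4% in replicates 3 and 4. For cAMP and CREB feedback and clock genes 4 of 18 regions rose at 60 min (Per1 5, Per1 6, Sik1 2 and Sik1 4) and 6 in replicates 3 and 4, with a median of 0.72. At 20 min of sustained and of brief activity the median of this list was above 0 as deposited (0.12 and 0.41) and below 0 when centred (-0.19 and -0.14), and that of the ERK list at 20 min sustained was 0.46 and -0.11.

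Secreted factors and their processing enzymes had 1 of 10 regions past the threshold at 60 min (Scg2 1) and 5 in replicates 3 and 4, with a median of 1.5. Among all regions 9.33% rose at 60 min, and 25.4% in replicates 3 and 4. The 1 of 10 here and the 1 of 15 below are near that first share or under it. Growth arrest and turnover regulators had 1 of 15 (Btg2 5; 1 in replicates 3 and 4; median 0.89), and synaptic and dendritic effectors 2 of 5 (2 in replicates 3 and 4), with a median of 0.23 that was -0.60 when centred. Homer1 1, of a scaffold of the postsynapse, ranked 2 per kb in unstimulated neurons with 12.8 and had 12.1 after 60 min. The 207 tested regions in no list held 14 of the 32.

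Ion channel and receptor regions had a median below 0, and 9 of the 16 tested are of the 1 gene Kcna1. Of 16 tested regions 0 changed in any comparison of the lists, over all replicates or in replicates 3 and 4, and the median at 60 min was -0.54, -0.61 in replicates 3 and 4 and -0.93 when centred. Kcna1, the gene of a potassium channel of axons, has 10 regions, the most of any gene, between chr6:126531340 and chr6:126583810. All 9 that were tested had a log2 change below 0 at 60 min of sustained activity, -1.85 to -0.38 as deposited, -1.25 to -0.59 in replicates 3 and 4 and -1.81 to -0.76 when centred, where 1 passed. The 9 lie at 1 locus and are not independent. Per kb in replicates 3 and 4, the Kcna1 regions had 0.0713 to 0.273 after 60 min, against 0.814 for the median region. Kcna1 2 had 0, 0, 0.205 and 0.0149 after 60 min against 0.377, 0.245, 0.321 and 0.219 in unstimulated neurons. Its introns were too low to test, at 0.0565 and 0 RPM against 0.0934 and 0.213 RPM.

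The 7 regions that fell at 60 min in replicates 3 and 4 were chosen for naming after their values were seen: Stam 1 (log2 change -1.99), Bcl9 2 (-1.39), Gmeb2 3 (-1.10), Mycbp2 1 (-1.01), Crhbp 1 (-0.95), Bcl9 3 (-0.85) and Ddr2 1 (-0.77). Over all replicates they had -1.46 to -0.50 and none passed. Bcl9 encodes a coactivator of beta-catenin, Crhbp a binding protein of corticotropin-releasing hormone, and Ddr2 a collagen receptor.

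Regions of 1 gene did not always respond alike. Of the 169 genes 84 had 1 region, 40 had 2, 22 had 3 and 23 had 4 or more, up to 7 for Fosb, 9 for Egr1 and Per1 and 10 for Kcna1. The median gap between neighbouring regions of a gene was 15200 bp, and 3 gaps passed 1 Mb: 4.41 Mb for Omg, 3.7 Mb for Fam72a and 1.37 Mb between Egr1 7 and Egr1 8. Of 83 genes with 2 or more tested regions, 17 had a region past the threshold at 60 min of sustained activity and 0 had all of them past it, while in replicates 3 and 4 the counts were 38 and 6. The 6 were Fosl2, with log2 changes of 2.11 to 3.05 in its 3 regions, Scg2 (2.57 to 3.54), Nfil3 (2.28 to 2.37), AK140370 (1.62 to 1.77), 4931440P22Rik (1.56 to 1.67) and Grasp (1.55 to 1.62). A region short of the threshold is not thereby shown to differ from its gene's other regions. At 60 min the SD of the log2 change over the regions of 1 gene was 1.09, against 1.31 over the same 262 regions pooled. In replicates 3 and 4 it was 0.89 against 1.14. These SDs include the error of each region's change.

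**Figure D3:**
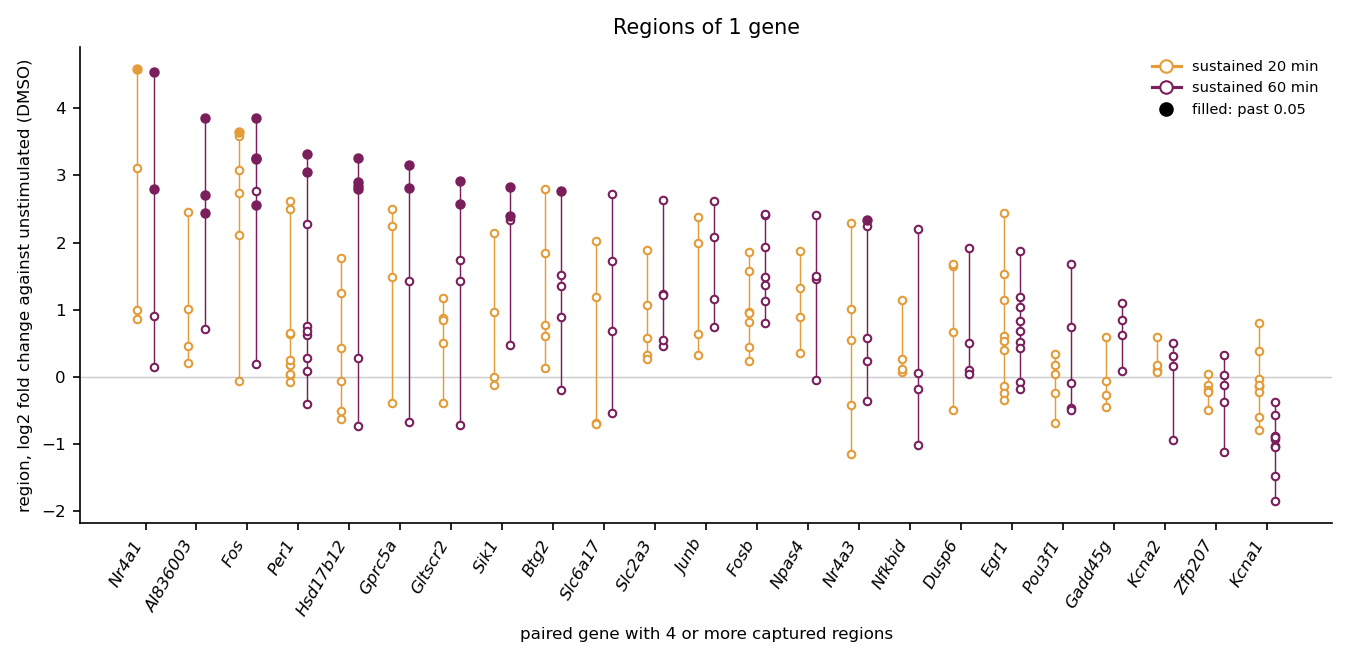
log2 change against unstimulated neurons (DMSO) of every tested region of the 23 genes with 4 or more regions, at 20 and 60 min of sustained activity; each point is a region and filled points passed an adjusted p of 0.05. Nr4a1 runs from 0.14 to 4.54 and Kcna1 from -1.85 to -0.38 at 60 min.

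Each region was then tested against the mean of its gene's regions in the same replicate, over the 262 regions of genes with 2 or more. At 60 min 9 regions responded more (3.44%) and 7 less (2.67%) than their gene's mean, in 13 genes. At 20 min 6 responded more (2.29%) and 1 less (0.382%), and at 20 min of brief activity 1 more and 1 less (0.382% each), both of Omg. Replicates 3 and 4 gave 36 more (13.7%) and 39 less (14.9%) at 60 min, 22 (8.4%) and 18 (6.87%) at 20 min and 14 (5.34%) and 5 (1.91%) at 20 min of brief activity. Leaving out 1 replicate gave 2 to 22 regions in all at 60 min, 0 to 17 at 20 min and 0 to 3 with brief activity at 20 min. Without the library with 167 regions at 0 the numbers were 49, 25 and 8. In genes with 2 regions the pair gives mirrored values.

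Omg had the smallest adjusted p. Omg 1 and Omg 2, 4.41 Mb apart, stood 3.67 above and below their mean (SE 0.43, adjusted p = 4.48e-08). Omg 2 had 0, 0, 1.38 and 0.724 after 60 min, against 0.575, 0.699, 0.457 and 0.546 in unstimulated neurons. Nr4a1 2 lay 2.44 above its gene's mean (adjusted p = 0.00436), and Nr4a1 3 and 4 had log2 changes of 0.14 and 0.91.

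Per1 5 and Per1 6, of 9 Per1 regions, lay 1.86 and 2.12 above the mean (adjusted p = 0.0041 and 0.00436). Per1 6 had 157, 97.2, 21.4 and 44.4 after 60 min, against 4.86, 13.0, 3.63 and 5.63 in unstimulated neurons, and Per1 2 had 1.45, 3.16, 0.607 and 1.80 against 2.75, 0.771, 0.550 and 1.68. Groups were apart in Per1 6 and overlapped in Per1 2. Hsd17b12 1 lay 2.62 below its gene's mean (adjusted p = 0.0146), with 4.43, 1.83, 0.650 and 1.33 against 6.69, 6.17, 1.13 and 1.42.

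Slc25a30 2, of a mitochondrial carrier gene, lay 1.82 above (adjusted p = 0.00631), Nfkbid 3 lay 1.94 above (0.0146), Errfi1 1, of an inhibitor of the EGF receptor, 1.02 above (0.0274), and Gprc5a 4 lay 2.36 below (difference -2.36, adjusted p = 0.0274). Nr4a3 4 lay 1.84 above its gene's mean at 20 min (adjusted p = 0.0484; 1.37 and 0.138 in replicates 3 and 4). Nr4a3 5 did not differ from that mean past the threshold over all replicates, and in replicates 3 and 4 it lay below the mean at 20 min (-1.23, adjusted p = 0.00469) and above it at 60 min (1.41, adjusted p = 0.0012). Nr4a3 4 at chr4:48054050-48057260 had 141, 78.8, 22.1 and 33.6 at 20 min and 113, 94.0, 18.8 and 35.6 at 60 min of sustained activity, with 13.6, 13.4, 8.40 and 8.63 in unstimulated neurons, and Nr4a3 5 was at 0 to 0.253 at 20 min and 2.86 to 4.35 at 60 min. Among the other genes with 4 or more regions, the widest ranges of the log2 change at 60 min were those of Hsd17b12 (-0.73 to 3.26), Gprc5a (-0.68 to 3.16), Per1 (-0.40 to 3.31), Fos (0.20 to 3.85) and Gltscr2 (-0.71 to 2.92).

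The response of each region was set beside that of the introns of its gene. Of the 169 genes 154 are in the intron table and the introns of 143 were tested. At 60 min of sustained activity introns of 48 were higher and 3 lower (Nr3c1, Alg12 and Sar1b), against 3.1% and 4.82% of all 21520 transcripts. At 20 min 16 were higher and 0 lower (0.223% and 0.0558% of all transcripts), and at 20 min of brief activity 10 and 0 (0.107% and 0.00465%). The paired genes hold many activity-regulated genes by the authors' choice, so these shares are no result about enhancers.

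For 284 regions of 139 genes both readouts were tested. Of the 27 that rose at 60 min 23 had introns that rose, and of 3 at 20 min 2 had. The reverse share was smaller. Introns rose in the genes of 132 regions at 60 min, and 78 of these regions did not pass even in replicates 3 and 4. The median log2 change of regions was 0.992 where introns rose and 0.197 elsewhere at 60 min (0.706 and -0.088 in replicates 3 and 4), 0.815 and 0.18 at 20 min, and 1.084 and 0.362 with brief activity at 20 min. Across the 284 regions Spearman's rho between the changes was 0.392 at 60 min, 0.262 at 20 min and 0.32 with brief activity at 20 min (Pearson's r 0.396, 0.376 and 0.37). Over the mean of each of 139 genes rho was 0.411, 0.264 and 0.368. These are descriptions across regions that share genes and libraries.

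**Figure D4:**
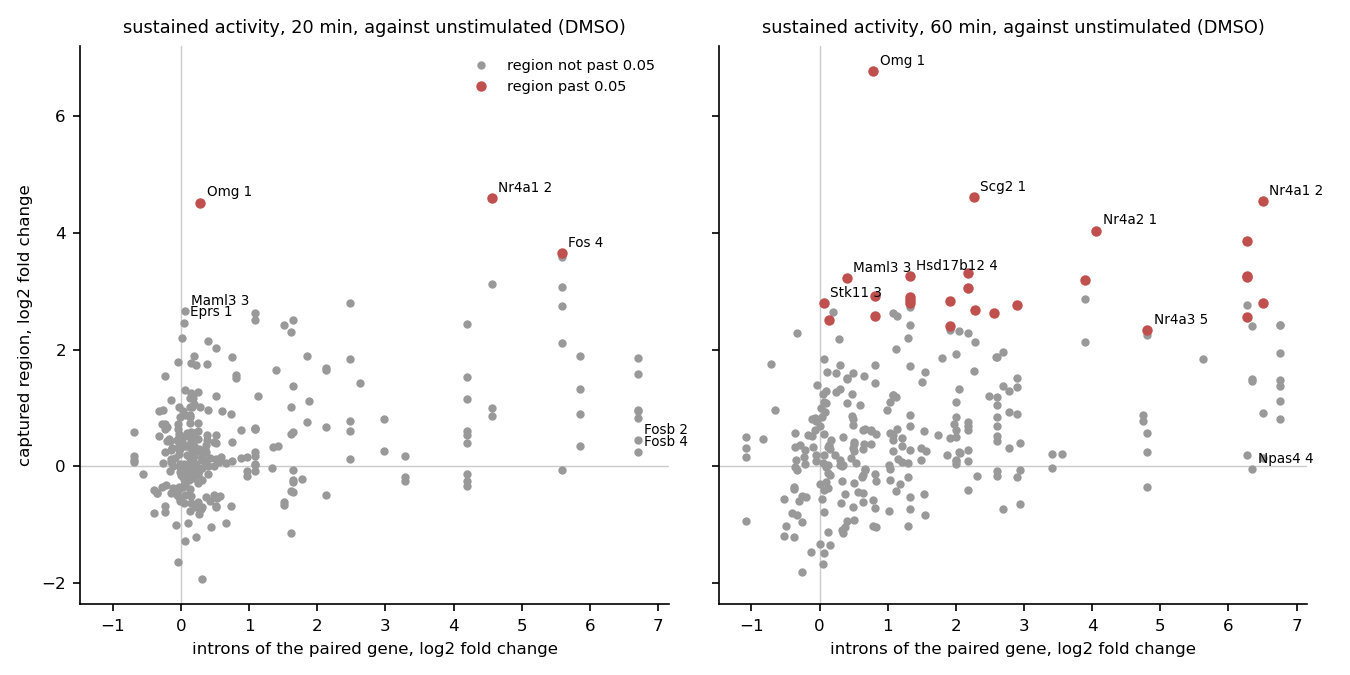
log2 change of each captured region (y axis) and of the introns of its gene (x axis) against unstimulated neurons, DMSO, at 20 min (left) and 60 min (right) of sustained activity, 284 regions in each panel; red points are regions past an adjusted p of 0.05 in the capture. Omg 1 lies at 6.77 with introns at 0.79 at 60 min, and Npas4 4 at -0.05 with introns at 6.35.

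Some regions rose with little change in the introns. Omg introns had 0.905 and 0.861 RPM after 60 min, against 0.705 and 0.201 RPM in unstimulated neurons (log2 change 0.79, adjusted p = 0.286), beside a change of 6.77 at Omg 1. Maml3 introns had 18.2 and 20.0 RPM against 12.9 and 16.0 RPM (0.40, adjusted p = 0.244), beside 3.22 at Maml3 3. Stk11 introns had 49.6 and 55.2 RPM against 48.2 and 51.8 RPM (0.07, adjusted p = 0.945), beside 2.79 at Stk11 3. At 20 min Omg 1 and Maml3 3 were at 4.52 and 2.65 with introns at 0.29 and 0.06, and Eprs 1, of a tRNA synthetase gene, was at 2.46 (adjusted p = 0.365) with introns at 0.04. The region's gene is the one the authors list as nearest, and whether the region acts on it was not tested. Omg 1 lies 4.41 Mb from Omg 2, the other region listed under Omg, so both cannot lie close to that gene. The difference between the 2 readouts, made in different libraries, was not tested either.

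Other regions had small changes beside strongly rising introns. Npas4 introns, of a neuron-specific immediate-early factor, had 93.1 and 69.1 RPM after 60 min against 0.664 and 0.824 RPM in unstimulated neurons (log2 change 6.35, adjusted p = 2.06e-05), and Npas4 4 had 8.78, 2.13, 1.09 and 2.01 against 5.87, 3.96, 1.20 and 1.73. Nr4a1 introns changed by 6.51 beside 0.14 at Nr4a1 3, and Fos introns by 6.28 beside 0.20 at Fos 6. At 20 min Fosb introns had 38.7 and 48.3 RPM against 0.124 and 0.219 RPM (6.70, adjusted p = 3.11e-05), with Fosb 4, 2 and 6 at 0.24, 0.45 and 0.83. Each of these genes except Fosb had another region past the threshold over all replicates or, for Npas4, in replicates 3 and 4, and Fosb 1 rose in replicates 3 and 4.

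The same regions were measured in total RNA without capture, at 3193 to 9145 reads per library over the enhancer table. Of 309 regions tested in both, 31 rose in the capture at 60 min of sustained activity, and all 31 were above 0 in total RNA with a median log2 change of 2.574, against 0.268 for all 309. In total RNA 51 of the 309 rose and 4 fell, where 14.2% of all 372 enhancers tested rose and 1.34% fell, and 26 rose in both. At 20 min 5.38% of the 372 rose and 0.538% fell, with all 3 of the captured calls among those that rose, and at 20 min of brief activity 3.76% of the 372 rose and 0 fell, without Scg2 1 among them. Across the 309 regions Spearman's rho between capture and total RNA was 0.776 at 60 min, 0.61 at 20 min and 0.463 with brief activity at 20 min.

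Omg 1 had 20.0 and 18.4 RPM in total RNA after 60 min, against 0.327 and 0.278 RPM in unstimulated neurons (log2 change 5.85, adjusted p = 1e-05). Scg2 1 had 0.893 and 1.76 RPM against 0.0931 and 0.0620 RPM (3.59, adjusted p = 0.00323). Hsd17b12 3 and Nr4a3 5, which rose in the capture, had total RNA changes of 0.59 and 0.89 that did not pass (adjusted p = 0.73 and 0.455). Nr4a3 5 had 0.241 and 0.163 RPM against 0.0748 and 0.113 RPM. With U0126, Omg 1 had 18.2 RPM in the 1 replicate at 60 min of sustained activity, and 0.838 and 0.488 RPM against 3.46 and 1.62 RPM with DMSO at 20 min of brief activity (log2 difference -1.84, adjusted p = 0.112).

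**Figure D5:**
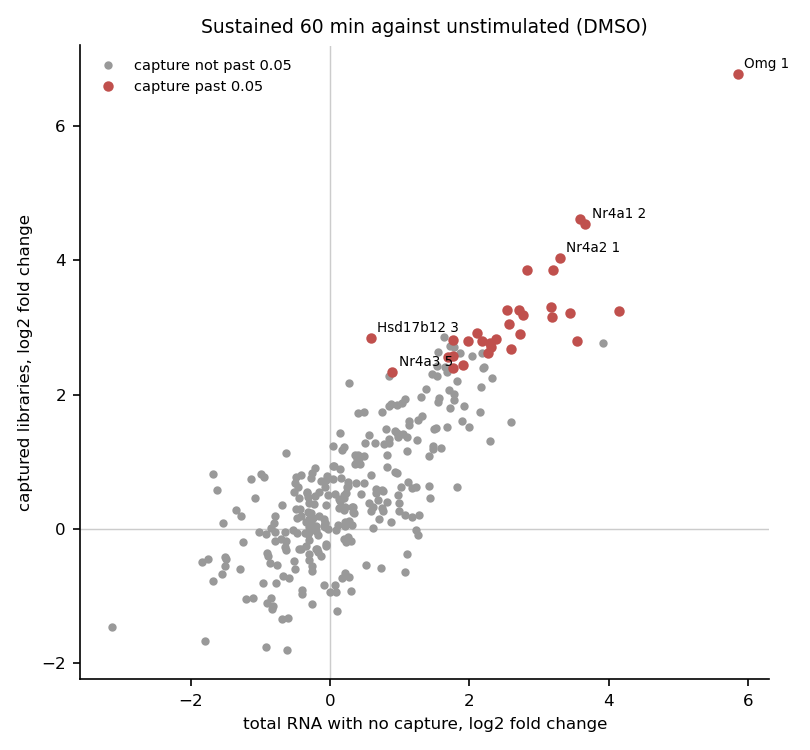
log2 change at 60 min of sustained activity (DMSO) in total RNA (x axis) and in the capture (y axis) of the 309 regions tested in both; red points passed an adjusted p of 0.05 in the capture. The 31 regions that rose in the capture all lie right of 0.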

How the data were processed

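Per the labels' protocols, libraries kept the strand of total RNA and the captured ones were pulled down with baits. The submitters' processing notes name STAR, SAMtools, bedtools and the build mm9, without versions. The authors deposited the captured enhancers as a signal whose values are whole multiples of 1 read in every column (tolerance 0.05), with a scale not given in the sources used here. They deposited introns of total RNA as RPM and the enhancers of total RNA as values read as RPM, whose total is unknown here; 100% of both came out as whole reads. From each of these total RNA tables, 2 identical columns were left out (DMSO brief 60 min replicate 2 and U0126 sustained 60 min replicate 2). The last U0126 sustained 60 min column is headed replicate 4 and its sample replicate 5.

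With limma 3.58.1 (R 4.3.3), differences were tested on log2 values after adding the 10th percentile of non-zero values (0.229 for the capture, 0.248 RPM for introns, 0.0304 RPM for enhancers of total RNA), so changes of low features are understated. Features with a mean below it were left out, which removed 8 regions. All 10 groups shared 1 fit, and p was adjusted by Benjamini-Hochberg over all 343 regions, 21520 intron transcripts or 372 enhancers. The transcript with the highest mean stood for each gene. Groups with 1 sample are assumed to vary like the others. edgeR 4.0.16 on recovered reads was an alternative. On simulated data 8-fold changes were recovered in 48.3% of 60 changed regions of 351 in the captured table at sustained 60 min, with 0% of calls false. In 100% of 200 changed intron transcripts of 21519, and of 60 changed enhancers of total RNA of 374, they were recovered, with 4.76% and 9.09% of calls false. The simulated reads had a set dispersion and no variation shared by replicates of the same number. Changed features had a mean of at least 10 reads. These shares are therefore not error rates of the calls reported here.

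Named are the 10 strongest changes past the threshold per comparison, all regions of 8 immediate-early genes, the 10 regions farthest from their gene's other regions and the 3 largest gaps to introns, besides those said to be chosen later. Members, lists and rules were chosen with earlier results of these data known. Intervals and floors were not computed for the signal; reads are not unique molecules.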

Additional observations from a re-analysis of the deposited data

Results flagged for a closer look

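In 60 groups of 4 samples 3 had a sample whose gap to its nearest neighbour, as a share of the group's range, passed Dixon's critical value at the 95% level, which chance gives in about 1 group in 20. U0126 with sustained activity at 20 min, replicate 1, held 1073939 reads, the most of the 48 libraries. In the same group replicate 2 had 55 regions without a read. With DMSO, the signal of Pgap1 2 at 60 min after brief activity was 0.162 in replicate 3, apart from the other replicates.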

How the results depend on the processing

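Limits: the scale behind the captured signal is unknown here, 1 step of the signal is 1 read, and most libraries of replicates 1 and 2 are shallower (median 167994 reads, against 357474.5 in replicates 3 and 4), though the deepest library is of replicate 1. Total RNA groups have 1 or 2 replicates. The cause of each shift in count below was not tested. For 24 region contrasts, the strongest past the threshold per comparison and not all that are named, the direction held in every refit. Of these refits 402 were on the same side of the threshold and 102 were weaker. Of the weaker, 63 came on leaving out 1 replicate and 21 in replicates 1 and 2 alone. The relation to introns and the overlap with total RNA moved by less than their spread.

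Counts of changed regions are given in the order sustained 20, sustained 60 and brief 20 min against unstimulated, sustained 60 against 20 min and sustained against brief 60 min; as reported they were 3, 32, 1, 7 and 14. These counts hold both directions. edgeR with TMM on recovered reads gave 23, 49, 10, 1 and 23, the 49 being 33 higher and 16 lower. Centred libraries gave 36, 80, 20, 17 and 54, and replicates 3 and 4 gave 45, 94, 16, 27 and 73. Those replicates centred gave 41, 104, 14, 12 and 63, and replicates 1 and 2 gave 0, 2, 0, 0 and 1. At sustained 60 min the 80 were 58 higher and 22 lower, the 94 were 87 and 7, and the 104 were 64 and 40. Without the library with 167 regions at 0 the counts were 17, 56, 13, 11 and 33, a choice made after its depth was seen. Fitting only the groups compared gave 25 at sustained 20, 60 at sustained 60 and 15 at brief 20 min, and the first of the 2 unstimulated cultures alone gave 7 at sustained 20 and 5 at brief 20 min. At brief 20 min no filter gave 5, a pseudocount 4 times larger 2 and one of 50% size 0.

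Brief 60 min against unstimulated, with 0 as reported, gave 1 by edgeR, 1 centred, 1 with its own groups, 1 in replicates 3 and 4 and 3 in these centred. Brief 60 against 20 min gave 1 by edgeR and 1 in replicates 3 and 4 centred. Sustained against brief 20 min gave 1 centred and 2 in replicates 3 and 4 centred. U0126 against DMSO gave, at brief 20 min, 2 by edgeR, 5 centred and 3 in replicates 3 and 4, and at brief 60 min 2 centred and 1 in replicates 1 and 2.

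Replicates of the same number varied together, and 37 of 40 correlated best with their own number. The correlation passed 0.1 in 44 of 45, 36 of 45, 45 of 45 and 36 of 36 pairs of replicates 1 to 4. Its medians were 0.303, 0.263, 0.627 and 0.474. The lowest was -0.035, and the labels do not tie a number to 1 dissection across groups. The fit as reported has no replicate block and leaves this shared variation in its spread. The replicate block gave 17, 13 and 35 at sustained 20, brief 20 and sustained against brief 60 min and 54 at sustained 60 min. The block on centred libraries gave 50, 134, 28, 30 and 88 in the order above, the 134 being 71 higher and 63 lower. It also gave 1 at brief 60 min, 13 for brief 60 against 20 min and 5 for sustained against brief 20 min. For U0126 at brief 20 and 60 min it gave 7 and 12. Over the whole tables edgeR on recovered reads gave 837 higher and 511 lower intron transcripts at sustained 60 min, against 668 and 1037 by limma, and 35 higher and 10 lower enhancers of total RNA, against 53 and 5. For introns of the paired genes the block gave 25 at sustained 20 and 26 at brief 20 min, against 16 and 10 as reported. Regions that departed from their gene's mean, 7 at sustained 20, 16 at sustained 60 and 2 at brief 20 min, numbered 19, 32 and 4 with the block, 40, 75 and 19 in replicates 3 and 4, and 25, 49 and 8 without the library with 167 zeros. At sustained 60 min a pseudocount 4 times larger gave 30 and one of 50% size 10.

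Leaving out 1 replicate gave 1 to 4 at sustained 20, 4 to 32 at sustained 60, 0 to 10 at brief 20, 1 to 8 for sustained 60 against 20, 2 to 26 for sustained against brief 60 and 0 to 1 for U0126 at brief 60 min. It gave 9 to 11, 36 to 40 and 6 to 8 paired genes with changed introns at sustained 20, sustained 60 and brief 20 min, and 0 to 17, 2 to 22 and 0 to 3 regions that departed from their gene's mean.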
